A study of Homo sapiens with 12 samples.

Results

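G1 cyclins, their kinases, 2 kinase inhibitors and RB1 were followed in RCC4 cells after knockdown of the hypoxia-inducible factors HIF-1α and HIF-2α. The group was a fixed list of 10 gene symbols (CCND1, CCND2, CCND3, CDK4, CDK6, CCNE1, CCNE2, CDKN1A, CDKN1B and RB1) among the 23106 symbols in the count files, taken by symbol and not by a limit on any measured value. The choice was made with earlier results of these data known. All 10 had enough reads to be tested. RCC4, an established line from a human clear cell renal carcinoma, lacks functional VHL, the protein that marks HIF-α for destruction, so both HIF-α proteins are present in ordinary culture. The 12 libraries of polyA RNA came from this line alone, harvested 48 h after transfection with siRNA pools at a total of 2 nM. Control cells received 2 nM control (non-targeting) siRNA, HIF1A siRNA and HIF2A siRNA cells each received 1 nM of the named pool (HIF2A siRNA targets EPAS1, which encodes HIF-2α) with 1 nM control siRNA, and double knockdown cells received 1 nM of each HIF pool and no control siRNA. Each group had 3 replicates, numbered 1 to 3.

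D-type cyclins bind CDK4 or CDK6 in G1, and the active kinases phosphorylate RB1, the retinoblastoma protein, which otherwise holds E2F transcription factors in check. Released E2F drives the genes of DNA replication and the E-type cyclins, which activate CDK2 and carry the cell into S phase. The inhibitors p21 (CDKN1A) and p27 (CDKN1B) bind cyclin-CDK complexes and restrain CDK2. In clear cell renal carcinoma the cyclin D1 gene CCND1 is a well known target of HIF-2, reached through an enhancer far from the gene, and CDK4/6 are the targets of drugs in clinical use.

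The depth was 13263168 to 20451433 counts per library. Targeted mRNAs were lower in every pair of libraries with the same replicate number: HIF1A was at 12.5 to 30.6% of control with HIF1A siRNA and at 20.1 to 55.3% in the double knockdown, and EPAS1 at 5.46 to 8.60% with HIF2A siRNA and at 4.10 to 8.16% in the double knockdown. HIF1A mRNA in the double knockdown was at 134 to 180% of its level with HIF1A siRNA alone (log2 fold change 0.66, adjusted p = 0.18). EPAS1 was also lower than control with HIF1A siRNA in all 3 pairs, at 62.2 to 78.5% (log2 fold change -0.47, adjusted p = 0.28). All 6 markers of the renal epithelial tumor cell had counts in every library, with PAX8 between 197 and 315 CPM, a count scaled by library size. Among them KRT18 was at 111 ± 28.4 CPM with control siRNA and 159 ± 53.7 in the double knockdown, and KRT19 at 93.3 ± 15.2 and 63.8 ± 16.9 (SD, n = 3). CA9, which the paper names as a HIF target, was the marker that moved most. Its libraries were at 143.5 to 282.9 CPM with control siRNA and 197.2 to 404.8 with HIF2A siRNA. With HIF1A siRNA they were at 9.146 to 26.16 CPM, and in the double knockdown at 6.767 to 16.32. The 3 endothelial markers had at most 8 counts in any library (PECAM1 had 0). Of 4 leukocyte markers PTPRC and CD3E had 0 counts in every library, and the 4 summed to 45.2 to 58.3 CPM with control siRNA, 46.2 to 63.9 with HIF1A siRNA, 33.1 to 60.1 with HIF2A siRNA and 52.2 to 65.5 in the double knockdown. Nearly all of this sum was CD68 (mean 49.0 CPM with control siRNA, beside 0.734 for LYZ). The 4 pericyte and fibroblast markers, of which PDGFRB, RGS5 and COL1A1 had counts in every library, summed to 30.0 to 46.6, 21.4 to 49.8, 33.7 to 84.5 and 22.6 to 65.9 CPM in the same order of groups. COL1A1 was the largest part of this sum (mean 28.1 CPM with control siRNA). The part of these markers in the results was not tested. Replicate number was the larger source of spread by the median over all genes. It accounted for a median of 46.4% of the variance of log2 CPM over all genes tested, against 19.1% for siRNA. For the G1 genes its share ran from 1.64% (CCND3) and 7.97% (CCNE1) to 65.4% (CDK6), 76.2% (CDKN1A) and 78.5% (RB1). The siRNA share was the larger for CCND3 (66.2%), CCNE1 (59.7%) and CDK4 (57.5%), and the smaller for the other G1 genes. In each of the 4 groups replicate 3 had the lowest CCND1 and the highest CDK6, CDKN1A and RB1, so folds were taken within replicate number, as the study's methods pair the conditions, and calls that need this pairing are named.

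Promoter sequences are shown for the letters that HIF can bind. HIF dimers bind DNA at ACGTG or GCGTG. These letters were searched on both strands in the RefSeq promoter windows, 250 bases before to 50 after each start site, of which 7 of the 10 genes had 10. The windows of CCND1, CCND2 and CCNE2 are not analysed here. Among 35116 windows of the same length in the genome, 48.4% held at least 1 match (21.4% ACGTG, 36.5% GCGTG). The palindrome CACGTG, the E-box, counts as a match on both strands and was in 7.26% of windows. The 250 bases before the start site are printed for CDK6 and CDKN1A, which fell in the double knockdown, and for CDK4, the partner kinase that did not pass the test, with matches in capitals.
CDK6, downstream of its 2 promoters (GRCh38.p14, chr7:92833960-92834209, minus strand): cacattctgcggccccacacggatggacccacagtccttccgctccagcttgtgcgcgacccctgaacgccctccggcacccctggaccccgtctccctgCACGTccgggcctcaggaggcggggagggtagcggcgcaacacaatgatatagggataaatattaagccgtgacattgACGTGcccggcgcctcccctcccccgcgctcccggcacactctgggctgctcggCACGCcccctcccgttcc
CDKN1A (GRCh38.p14, chr6:36678464-36678713, plus strand): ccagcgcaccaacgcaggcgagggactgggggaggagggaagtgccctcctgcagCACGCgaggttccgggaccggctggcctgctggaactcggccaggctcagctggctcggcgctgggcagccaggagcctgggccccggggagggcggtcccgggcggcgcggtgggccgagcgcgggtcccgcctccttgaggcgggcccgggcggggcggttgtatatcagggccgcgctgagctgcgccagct
CDK4 (GRCh38.p14, chr12:57752311-57752560, minus strand): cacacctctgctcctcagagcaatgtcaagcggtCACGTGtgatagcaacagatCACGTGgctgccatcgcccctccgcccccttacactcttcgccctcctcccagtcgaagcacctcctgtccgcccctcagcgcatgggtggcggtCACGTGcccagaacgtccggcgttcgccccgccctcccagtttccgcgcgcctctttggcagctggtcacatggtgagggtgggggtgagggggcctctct
The printed CDK6 window holds 3 matches, none of them in an E-box, and the other CDK6 window holds 2, which share a single E-box after the start site. CDKN1A and CDKN1B each have 1 GCGTG. CDK4 has 6 matches that all lie in 3 E-boxes, and 1 of 3 CCND3 windows has 1 match. The CCNE1 window holds none. The start site of the RB1 window lies 173 kb downstream of the first base of the gene in GENCODE v44, so the start of that gene is not analysed here. By the same measure the start sites of the printed windows lie 3.70 kb (CDK4), 2.61 kb (CDK6) and 2.25 kb (CDKN1A) downstream. That of CDKN1B lies 31.9 kb downstream. The CCND3 start sites lie 1.67 kb (the window with the match), 108.5 kb and 111 kb downstream. A match describes letters only, and the libraries carry no measurement of binding.

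CCND1, which encodes cyclin D1, was lower than its control library in every pair that had received the HIF2A pool. Its mRNA was at 606, 568 and 330 CPM with control siRNA (replicates 1, 2 and 3), at 616, 634 and 313 with HIF1A siRNA, at 388, 412 and 188 with HIF2A siRNA and at 320, 288 and 170 in the double knockdown. Every double knockdown library was under every control library, whereas the HIF1A siRNA and HIF2A siRNA groups overlapped with control. Within pairs the HIF1A siRNA libraries were at 94.9 to 112% of control, the HIF2A siRNA libraries at 57.0 to 72.6% and the double knockdown libraries at 50.6 to 52.8%. In bulk RNA, less CCND1 mRNA in each cell and fewer cells in the state that expresses it cannot be told apart.

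**Figure D1:**
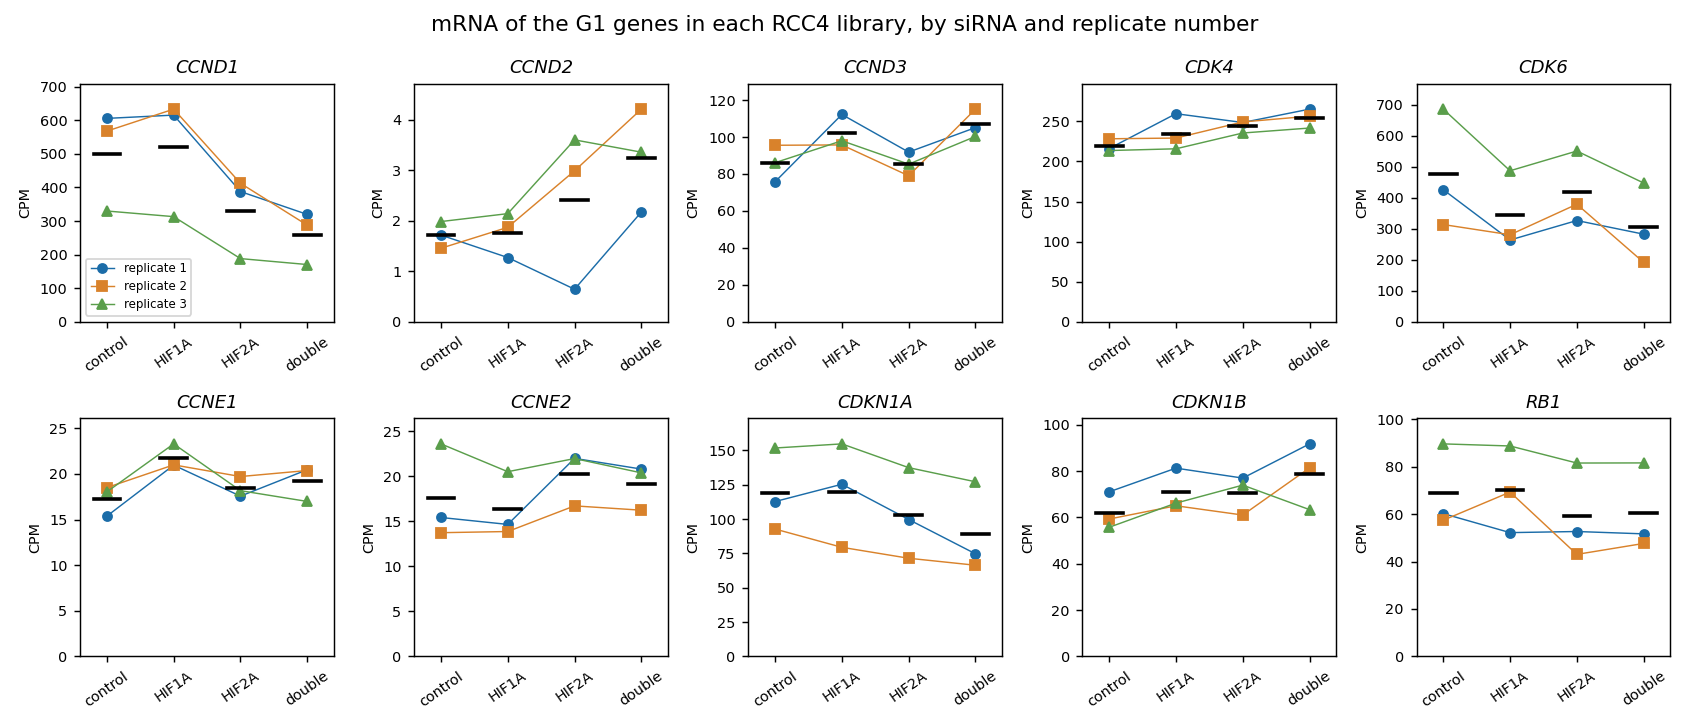
CPM (vertical axis, linear from 0) of the 10 G1 genes in the 12 RCC4 libraries by siRNA (horizontal axis), with replicate numbers as colors joined by lines and the mean of 3 as a black bar. CCND1 fell to 170 to 320 CPM in the double knockdown from 330 to 606 with control siRNA, and replicate 3 lay lowest for CCND1 and highest for CDK6, CDKN1A and RB1 in every group.

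Tests of CCND1 followed these pairs. All p-values are from edgeR's quasi-likelihood test with the replicate number as a block, with Benjamini-Hochberg adjustment over all genes tested, and a gene was called at an adjusted p under 0.05. Nothing in the labels says whether the 3 replicates came from separate cultures, although the methods call them biological, so p-values measure the spread between these libraries. In the double knockdown against control siRNA, where 10.3% of 13000 genes were called, CCND1 fell by 0.95 on the log2 scale (standard error 0.10, adjusted p = 1.8e-05). Against HIF1A siRNA, with 1.4% of genes called, the double knockdown gave -0.99 (standard error 0.10, adjusted p = 7.9e-05). Between the single knockdowns, with 1.5% of 12830 genes called, CCND1 was higher with HIF1A siRNA by 0.66 (standard error 0.11, adjusted p = 0.0068), at 154 to 167% within the 3 pairs. HIF2A siRNA alone gave -0.63 (standard error 0.11, 95% interval -0.87 to -0.39, adjusted p = 0.065), which missed the limit of 0.05 in a comparison where 0.0857% of genes passed it. It was called in the 12-library fit that gave the double knockdown values (-0.64, adjusted p = 0.013), with no filter on low counts (adjusted p = 0.0084) and by DESeq2, the study's own tool (adjusted p = 0.00014). In the main fit it passed the looser limit of 0.1 on the adjusted p, which 0.156% of genes passed as lower. The study's methods use this limit with DESeq2 and together with a limit on the log2 fold change, which was not applied here. The HIF2A siRNA value was not called without replicate 3 (-0.55, adjusted p = 0.9997) or without the replicate block (-0.59). HIF1A siRNA alone left CCND1 at 0.03 (95% interval -0.21 to 0.28). Without the replicate block none of these calls was made (adjusted p = 0.34, 0.96 and 1.00 for the 3 called values, with folds of -0.95, -1.01 and 0.65). Without replicate 3 the double knockdown was still called (-0.95, adjusted p = 0.0058, against control siRNA and -1.04, adjusted p = 0.018, against HIF1A siRNA), and the difference between the single knockdowns was not (0.64, adjusted p = 0.28).

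Adding the HIF1A pool to the HIF2A pool left CCND1 at 69.7 to 90.6% of HIF2A siRNA in the 3 pairs. The log2 fold change was -0.31 (standard error 0.10) with an adjusted p of 0.10, so this step was not called by edgeR, although DESeq2's test called it (adjusted p = 0.044). The interaction, which asks whether HIF2A siRNA acted differently with and without HIF1A siRNA, was -0.35 for CCND1 (95% interval -0.65 to -0.05, adjusted p = 0.999). No gene of any kind was called in the interaction (0% of 13000; 318 genes had an unadjusted p under 0.05, and DESeq2 called 11, none of them a G1 gene). Of the 10 G1 genes, CCND1 was the one with an unadjusted p under 0.05 there.

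The other D-type cyclins were not called in any comparison in the same fits. CCND3, the cyclin D3 gene, was at 75.8, 95.5 and 86.1 CPM with control siRNA, at 112, 95.7 and 98.0 with HIF1A siRNA, at 91.8, 79.0 and 85.3 with HIF2A siRNA and at 105, 115 and 100.3 in the double knockdown. All 3 double knockdown libraries were above all 3 control libraries, at 117 to 139% of control within pairs. The share of all genes whose groups separate in this way was not counted, so separation is a description only, here and for other genes. The log2 fold change of CCND3 was 0.31 (standard error 0.12) and was not called (adjusted p = 0.11), where 3291 of 13000 genes had an unadjusted p under 0.05. CCND3 was called with only the 6 libraries compared in the fit (0.32, adjusted p = 0.024) and without HIF2A siRNA replicate 2 (0.32, adjusted p = 0.045). Those 2 fits called 2609 of 12553 and 2307 of 13203 genes. CCND3 was nearly free of the replicate number, unlike CCND1. With HIF2A siRNA its log2 fold change was 0.00 (95% interval -0.29 to 0.29).

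CCND2, the cyclin D2 gene, was the least abundant of the 10. It had 0.643 to 3.60 CPM in the single knockdown and control libraries and 2.17, 4.21 and 3.36 in the double knockdown. Double knockdown libraries were at 127 to 290% of control within pairs and did not overlap with them. The interval of the log2 fold change ran from -0.08 to 1.79 (estimate 0.86, adjusted p = 0.24), and CCND2 was not called. Counting error alone would be 0.19 on the log2 scale for its 168 counts in the double knockdown and 89 in control libraries, against a fitted standard error of 0.44.

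The mix of D-type cyclin reads moved accordingly. CCND1 made up 84.3 ± 4.96% of the counts of the 3 D-type cyclins in control libraries, 82.3 ± 5.75% after HIF1A knockdown, 77.4 ± 8.30% after HIF2A knockdown and 69.2 ± 6.49% after both (each SD, n = 3). CCND3 took 15.4 ± 4.83% in control libraries and 29.8 ± 6.16% after both knockdowns (each SD, n = 3). Per kilobase of transcript, CCND1 was at 1.83 to 3.82 times CCND3 with control siRNA and at 0.812 to 1.45 times in the double knockdown, where replicate 3 had more CCND3 than CCND1.

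CDK6, one of the kinases that D-type cyclins activate, was lowest in the double knockdown in 2 of the 3 replicate numbers. It was at 426, 314 and 686 CPM with control siRNA, at 264, 281 and 487 with HIF1A siRNA, at 327, 379 and 551 with HIF2A siRNA and at 282, 191 and 448 in the double knockdown. The groups overlapped, since replicate 3 was the highest in each, but the double knockdown libraries were at 61.0 to 66.3% of their own controls. CDK6 fell by 0.63 on the log2 scale (standard error 0.14, adjusted p = 0.0089; adjusted p = 0.62 without the replicate block). The call was lost without replicate 3 (adjusted p = 0.15), without control siRNA replicate 3 (0.056) and without double knockdown replicate 2 (0.057).

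HIF1A siRNA alone gave CDK6 values of 61.9, 89.5 and 71.0% of control in the 3 pairs, a log2 fold change of -0.46 (95% interval -0.76 to -0.16, adjusted p = 0.25). Replicate 2 decided this value, because leaving out replicate 2, or its control library alone, gave -0.59 and -0.62 and a call (adjusted p = 0.0135 for both). With HIF2A siRNA the pairs went both ways, from 76.6 to 121% of control (log2 fold change -0.14, 95% interval -0.44 to 0.16). Double knockdown against HIF2A siRNA gave -0.50 (standard error 0.14, adjusted p = 0.062), and against HIF1A siRNA -0.18 (standard error 0.14, adjusted p = 0.67). CCND1 was thus called lower against HIF1A siRNA and CDK6 was not, but whether the 2 genes differ in this was not tested.

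**Figure D2:**
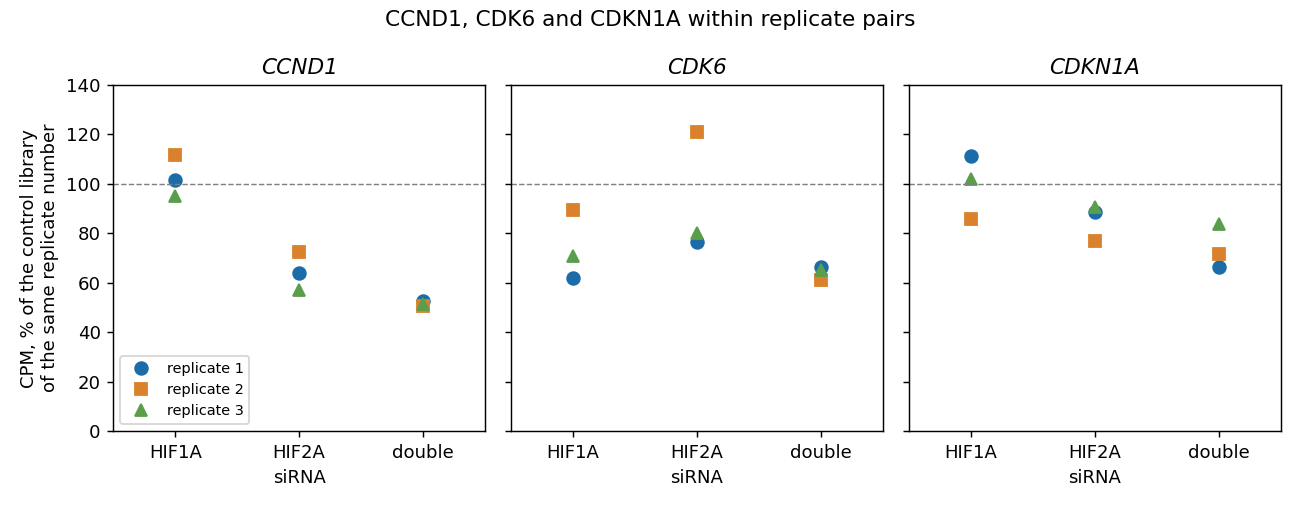
CPM as a percentage of the control library of the same replicate number (vertical axis, linear from 0) for CCND1, CDK6 and CDKN1A with each siRNA (horizontal axis), 1 point per pair. The 3 double knockdown points lie close together at 50.6 to 52.8% for CCND1 and 61.0 to 66.3% for CDK6, and CDK6 with HIF2A siRNA lies on both sides of 100%.

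CDK4, the other kinase partner, lay in a narrow band. Its 12 values were between 214 and 265 CPM, with 216, 228 and 214 in the control libraries and 265, 256 and 242 in the double knockdown libraries. All 3 double knockdown libraries were above all 3 controls (112 to 123% within pairs), as were all 3 HIF2A siRNA libraries (109 to 115%). The fitted log2 fold changes were 0.21 (95% interval 0.01 to 0.41, adjusted p = 0.17) and 0.17 (95% interval -0.07 to 0.40, adjusted p = 0.95), and neither was called. The ratio of CDK6 to CDK4 per kilobase was 0.220 to 0.514 in the control libraries and 0.119 to 0.296 in the double knockdown.

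The E-type cyclins, which follow E2F release and activate CDK2, stayed at low levels in all groups. CCNE1 was at 15.4, 18.5 and 18.0 CPM with control siRNA, at 21.0, 21.0 and 23.3 with HIF1A siRNA, at 17.6, 19.7 and 18.2 with HIF2A siRNA and at 20.5, 20.4 and 17.0 in the double knockdown. The HIF1A siRNA libraries were above all controls and above all HIF2A siRNA libraries. Their log2 fold change against control was 0.34 (standard error 0.15, 95% interval 0.02 to 0.66, adjusted p = 0.65) and was not called. CCNE2 was at 13.8 to 23.6 CPM with control siRNA, 13.9 to 20.5 with HIF1A siRNA, 16.7 to 22.0 with HIF2A siRNA and 16.2 to 20.8 in the double knockdown. All groups overlapped for CCNE2, and its log2 fold change in the double knockdown was 0.15 (95% interval -0.19 to 0.48).

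CDKN1A, the p21 gene and a classic target of p53, fell in the double knockdown. It was at 113, 92.8 and 152 CPM with control siRNA, at 125, 79.5 and 155 with HIF1A siRNA, at 99.7, 71.5 and 138 with HIF2A siRNA and at 74.7, 66.4 and 127 in the double knockdown. Replicate 3 was the highest and replicate 2 the lowest in every group, so the groups overlapped while the double knockdown was at 66.3 to 83.8% of control in the pairs. The log2 fold change was -0.44 (standard error 0.11, adjusted p = 0.024; adjusted p = 0.78 without the replicate block). Leaving out any of replicate 1, replicate 3, control siRNA replicates 2 or 3 or double knockdown replicates 1 or 2 ended the call, with adjusted p from 0.053 to 0.17 and folds from -0.34 to -0.53.

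Neither single knockdown gave a call for CDKN1A, although it was lower in all 3 pairs with HIF2A siRNA. HIF2A siRNA gave 77.1 to 90.5% of control in the 3 pairs (log2 fold change -0.22, 95% interval -0.48 to 0.03), and HIF1A siRNA gave 85.7 to 111% (-0.01, 95% interval -0.26 to 0.24). The double knockdown was at 59.6 to 83.6% of HIF1A siRNA (-0.43, standard error 0.11), which was not called by edgeR (adjusted p = 0.089) and was called by DESeq2 (adjusted p = 0.021). Against HIF2A siRNA it gave -0.21 (95% interval -0.45 to 0.04).

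CDKN1B, the p27 gene, was not called in any comparison in these fits. Control libraries had 71.0, 59.3 and 55.7 CPM, HIF1A siRNA libraries 81.2, 65.0 and 66.2, HIF2A siRNA libraries 77.0, 61.0 and 73.9, and double knockdown libraries 91.7, 81.4 and 63.3. Each of the 9 knockdown libraries was above its own control, at 103 to 137%. These 9 ratios share the same 3 control libraries and are not independent. None of the 3 comparisons was called (log2 fold changes of 0.19, 0.20 and 0.34, adjusted p = 0.84, 0.94 and 0.084). The double knockdown value was called with only the 6 libraries compared in the fit (0.34, adjusted p = 0.024) and without HIF2A siRNA replicate 2 (0.34, adjusted p = 0.034). Those 2 fits called 2609 of 12553 and 2307 of 13203 genes. The ratio of p21 to p27 mRNA per kilobase was 1.78 to 3.10 with control siRNA and 0.928 to 2.29 in the double knockdown.

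RB1, which encodes the protein these kinases act on, was at 60.2, 57.4 and 89.6 CPM with control siRNA and at 51.6, 47.6 and 81.6 in the double knockdown. With HIF1A siRNA it was at 52.2, 69.3 and 88.7, and with HIF2A siRNA at 52.6, 43.0 and 81.5. Replicate 3 stood above replicates 1 and 2 in all groups. No comparison was called, and in the double knockdown the log2 fold change was -0.21 (95% interval -0.48 to 0.07, adjusted p = 0.34).

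**Figure D3:**
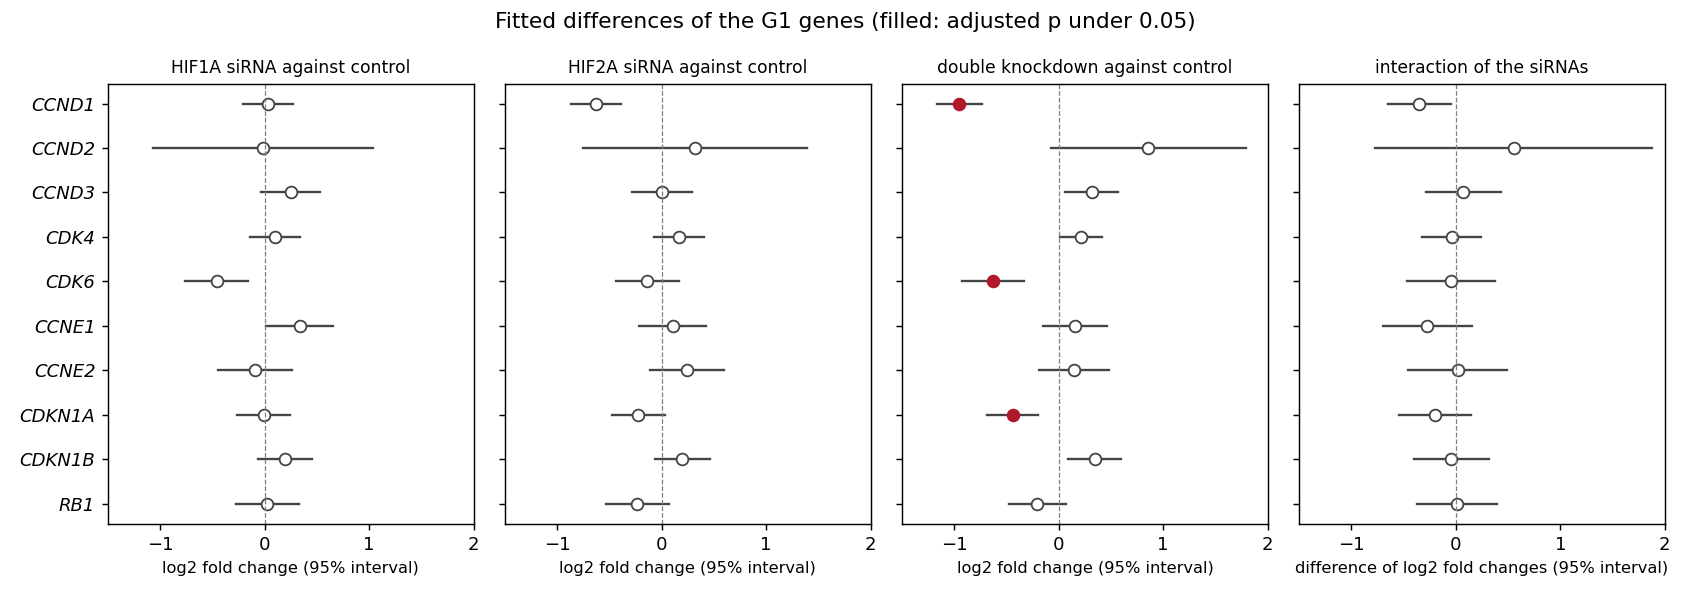
Log2 fold changes (horizontal axis) of the 10 G1 genes (vertical axis) with 95% intervals in 4 panels, for HIF1A siRNA, HIF2A siRNA and the double knockdown against control siRNA and for the interaction, with filled points at an adjusted p under 0.05. CCND1, CDK6 and CDKN1A are filled in the double knockdown panel at -0.95, -0.63 and -0.44, and no point is filled in the other 3 panels.

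Counts of called G1 genes stand here beside the share of all genes called in the same comparison. HIF1A siRNA against control gave 0 of 10 (1.17% of all genes called), also at the looser limit of 0.1 on the adjusted p, which 1.43% of genes passed as lower. There 2 G1 genes had an unadjusted p under 0.05, beside 940 of 12830 genes, and DESeq2 called 0 G1 genes, beside 236 of all genes. HIF2A siRNA gave 0 of 10 (0.0857% of all genes called), with 1 at an unadjusted p under 0.05, beside 690 of 12830 genes. DESeq2 called 1 G1 gene (CCND1) with HIF2A siRNA, beside 58 of all genes. The single knockdowns differed in 1 of 10 (1.5% of all genes). The double knockdown gave 3 of 10 against control siRNA, all lower (10.3% of all genes called, 6.42% as lower), 1 of 10 against HIF1A siRNA (1.4% of all genes) and 0 of 10 against HIF2A siRNA (4% of all genes). Against HIF2A siRNA 3 G1 genes had an unadjusted p under 0.05, beside 2317 of 13000 genes. DESeq2 called 2 there (CCND1 and CDK6), beside 818 of all genes. The median log2 fold change of the 10 in the double knockdown against control was 0.15, beside 0.00 over all genes tested. These comparisons share libraries and are not independent of each other, and the genes were chosen with earlier results of these data known.

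Levels can be compared between genes only per length. With the canonical transcript of each gene in GENCODE v44, CCND1 and CDK4 led in control cells at 118 ± 35.3 and 118 ± 4.22 CPM per kilobase (SD, n = 3), followed by CDKN1A at 56.3 ± 14.2, CCND3 at 42.4 ± 4.88 and CDK6 at 40.8 ± 16.4 (SD, n = 3). CDKN1B at 25.7 ± 3.32, RB1 at 14.5 ± 3.74, CCNE1 at 8.86 ± 0.864, CCNE2 at 6.58 ± 1.97 and CCND2 at 0.265 ± 0.0407 came next (SD, n = 3). The ranges of the libraries did not overlap between CDK4 and CDKN1A, between CDKN1B and RB1, between RB1 and CCNE1 and between CCNE2 and CCND2, and they overlapped between all other neighbors. In the double knockdown CDK4 was at 137 ± 6.40 and CCND1 at 61.2 ± 18.6 CPM per kilobase (SD, n = 3), and these no longer overlapped.

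**Figure D4:**
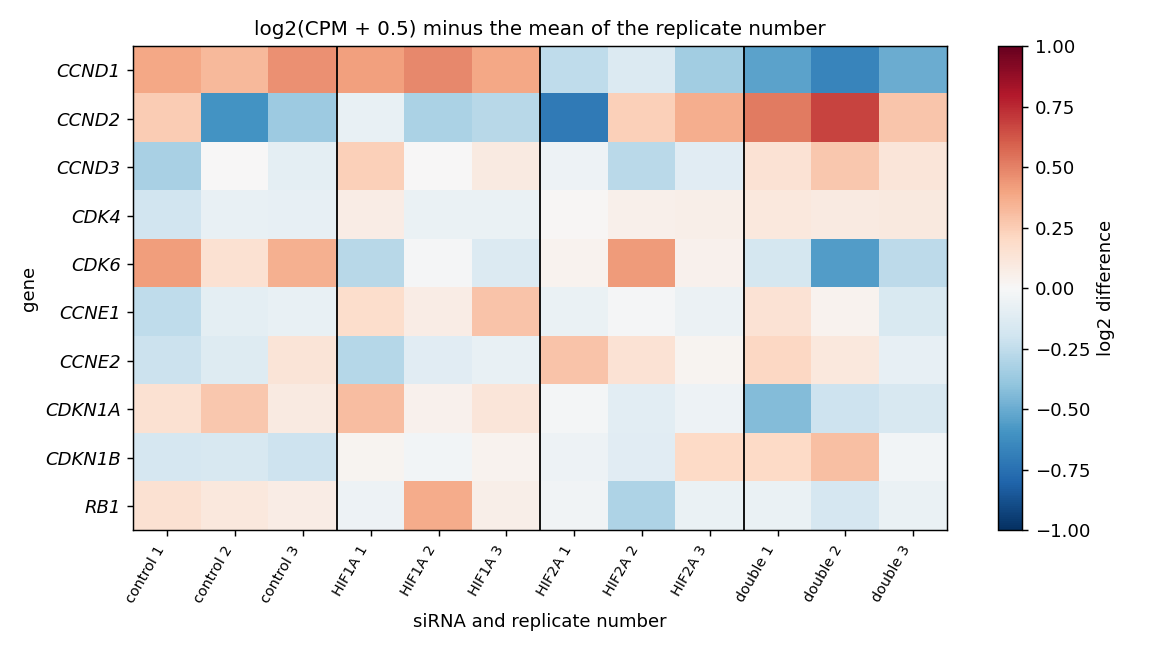
Log2(CPM + 0.5) of each G1 gene (rows) in the 12 libraries (columns) minus the mean of the 4 libraries with the same replicate number, in color from -1 (blue) to 1 (red). CCND1 and CDKN1A are above 0 in all 6 control and HIF1A siRNA libraries and below 0 in all 6 HIF2A siRNA and double knockdown libraries, CDKN1A with paler colors, and RB1 differs from this split in 1 library.

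With the replicate number removed in this way, CCND1 and CDKN1A had a Pearson correlation of 0.84 over the 12 libraries, CCND1 and CDK4 of -0.78, and CDK6 and CCND3 of -0.93. The 12 points share 4 conditions and 3 replicate numbers, so these are descriptions. The genes most like CCND1 by this measure were ABR (0.99), STK39 (0.98) and ITGB8 (0.98). SNAPC3, UBFD1 and TDRD9 were nearest to CDK6 (0.98, 0.97 and 0.97), and LURAP1L, VASP and SUMF1 to CDKN1A (0.93, 0.93 and 0.92). For CCND3 they were CPNE2, TBCC and PSMD3 (0.97, 0.96 and 0.96), and for CDK4 ECSIT, SLC2A2 and PPP1R37 (0.97, 0.96 and 0.96). RB1 was nearest to FYTTD1, PTPN12 and SPDL1 (0.95, 0.94 and 0.94), and CDKN1B to LOC100131089, HRSP12 and FAM155B (0.93, 0.91 and 0.90). CCNE1 had PCYT2, FBXL20 and FAM86EP (0.93, 0.90 and 0.89), CCNE2 had CREBZF, ZC3HAV1 and HERC2P3 (0.85, 0.85 and 0.84), and CCND2 had SLC6A13, TUBB1 and GGA3 (0.95, 0.90 and 0.90).

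Around the 10 genes stand the other regulators of the step from G1 to S phase. Of 31 such genes 29 were tested. CDKN2A and CDKN2B, which encode the CDK4/6 inhibitors p16 and p15, had at most 1 count in any library and 1 count each in all. In the double knockdown against control siRNA 2 of the 29 rose and 2 fell, where 3.86% of all genes tested were called higher and 6.42% lower. E2F7, a repressor of the E2F family, was at 133, 67.4 and 158 CPM with control siRNA and at 57.8, 47.6 and 76.0 in the double knockdown, so that the groups overlapped, and its fold on the log2 scale was -0.94 (standard error 0.14, adjusted p = 0.00056). RBL2, the p130 relative of RB1, fell by 0.37 on the log2 scale (adjusted p = 0.044), at 70.3 to 83.3% of control in the pairs. TFDP2, a dimerization partner of E2F, rose by 0.51 and E2F1, an activator of S phase genes, by 0.44 (adjusted p = 0.012 and 0.020), at 120 to 160% and 122 to 153% of control. The median of the 29 was 0.08 beside 0.00 over all genes tested. Against HIF2A siRNA E2F7 was again lower (log2 fold change -0.65, adjusted p = 0.016). Both calls of E2F7 needed the replicate block (adjusted p = 0.21 and 0.86 without it), as did those of RBL2, TFDP2 and E2F1 (0.83, 0.13 and 0.60). RBL2 kept its call in 5 of 21 alternative fits, E2F1 in 14, TFDP2 in 15 and E2F7 in 20.

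Of 20 S phase genes that E2F drives, 1 was called in the double knockdown against control siRNA, where 10.3% of all genes were. RRM2, the regulatory subunit of ribonucleotide reductase, was at 134, 139 and 139 CPM with control siRNA and at 246, 203 and 237 in the double knockdown. On the log2 scale it rose by 0.73 against control siRNA (standard error 0.12, adjusted p = 0.0016), by 0.54 against HIF1A siRNA (adjusted p = 0.048) and by 0.59 against HIF2A siRNA (adjusted p = 0.014). Its call against control siRNA was made without the replicate block too (adjusted p = 0.038) and was lost in 1 of 21 fits, the fit without replicate 3. Those against HIF1A siRNA and HIF2A siRNA were kept in 8 and 15 of 21 fits, and both were lost without the block (adjusted p = 0.65 and 0.21). The other 19 genes, MCM2 to MCM7, PCNA and CDC6 among them, were not called, and the median of the 20 was 0.12.

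Of 12 mitosis genes, BIRC5, which encodes survivin, was called in the double knockdown at 0.32 (adjusted p = 0.049), with 114 to 134% of control in the pairs, and the other 11 were not, beside 10.3% of all genes called. It kept this call in 7 of 21 alternative fits and lost it without the replicate block (adjusted p = 0.44). MKI67, the proliferation marker Ki-67, was at 562 ± 93.1 CPM with control siRNA and at 546 ± 44.1 in the double knockdown (SD, n = 3). The median of the 12 was 0.01.

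Of 20 target genes of p53, the factor that induces CDKN1A, 19 were in the files and tested. In the double knockdown against control siRNA 2 fell and 1 rose, beside 6.42% of all genes lower and 3.86% higher. BTG2, an antiproliferative gene, was at 35.4, 21.7 and 26.5 CPM with control siRNA and at 15.0, 13.1 and 16.9 in the double knockdown, with no overlap (log2 fold change -0.88, standard error 0.16, adjusted p = 0.0026). FAS, the death receptor, fell by 0.48 (adjusted p = 0.024), at 66.3 to 79.7% of control, while the death receptor gene TNFRSF10B rose by 0.52 (adjusted p = 0.012), at 129 to 168%. The other 16 were not called and the median of the 19 was -0.14. Against HIF2A siRNA the log2 fold change was -0.81 for BTG2 and 0.47 for TNFRSF10B (adjusted p = 0.0086 and 0.041). None of these calls was made without the replicate block (adjusted p from 0.13 to 0.56). Against control siRNA FAS kept its call in 14 of 21 alternative fits, TNFRSF10B in 15 and BTG2 in 19, and against HIF2A siRNA TNFRSF10B kept it in 8 and BTG2 in 16.

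**Figure D5:**
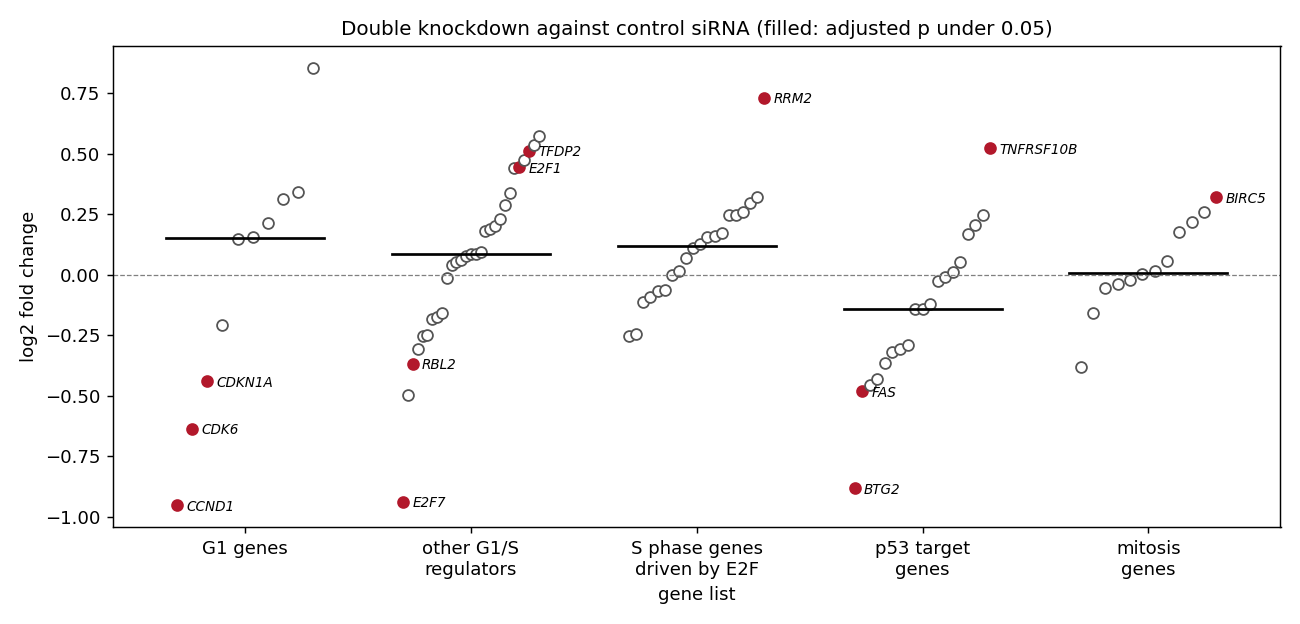
Log2 fold change of the double knockdown against control siRNA (vertical axis) for each tested gene of 5 lists (horizontal axis), with filled and named points at an adjusted p under 0.05 and black bars at the list medians. CCND1, E2F7 and BTG2 lie lowest, at -0.95, -0.94 and -0.88, and RRM2 is the highest filled point at 0.73.

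With HIF1A siRNA or HIF2A siRNA alone, and between them, 0 genes of these 4 lists were called by edgeR or by DESeq2. Of all 12830 genes edgeR called 150, 11 and 193 and DESeq2 called 236, 58 and 329. Against control siRNA the genes with an unadjusted p under 0.05 numbered 3 of 29 other regulators, 1 of 20 S phase genes, 1 of 19 p53 targets and 1 of 12 mitosis genes with HIF1A siRNA, and 1, 0, 1 and 0 with HIF2A siRNA. Of all 12830 genes 940 had such a p with HIF1A siRNA and 690 with HIF2A siRNA. Between the single knockdowns the genes of the lists with such a p numbered 4, 1, 2 and 0, beside 1311 of all 12830 genes. For the double knockdown against HIF1A siRNA, 0 of the 29 other regulators, 0 p53 targets and 0 mitosis genes were called by edgeR (5, 4 and 1 at an unadjusted p under 0.05), and DESeq2 called 3, 0 and 0. Of all 13000 genes edgeR called 182 there (1585 at an unadjusted p under 0.05) and DESeq2 called 403. Against HIF2A siRNA 0 mitosis genes were called by either tool, with 0 at an unadjusted p under 0.05, beside 2317 of all 13000 genes. In the interaction 0 genes of the 4 lists were called by either tool, with 0, 1, 2 and 0 at an unadjusted p under 0.05, beside 318 of all 13000 genes.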

How the data were processed

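RNA was measured in 12 RCC4 libraries. The authors trimmed adaptors (Trim Galore 0.3.3), aligned to GRCh37 (hg19) with HISAT2 (2.05), excluded non-uniquely mapped fragments with Picard (2.0.1), counted reads per UCSC gene with HTSeq (0.5.4p3, intersection-strict) and deposited raw counts. Strand use in counting is not given in the sources used here, although the kit was directional. Genes that overlap on the opposite strand are therefore uncertain, and these include LTO1 (CCND1), TSPAN31 (CDK4), INTS8 (CCNE2), GPR19 (CDKN1B) and LPAR6 (RB1) in GENCODE v44.

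Groups came from the sample labels. Counts were tested with edgeR 4.0.16 (R 4.3.3): TMM, filterByExpr (minimum count 10, minimum total 15), the replicate number as a blocking factor, and adjustment by Benjamini-Hochberg over all genes tested. Control, HIF1A and HIF2A siRNA libraries (9) were fitted together over 12830 genes, and all 12 libraries over 13000 genes for the double knockdown and the interaction, (double knockdown minus HIF1A siRNA) minus (HIF2A siRNA minus control siRNA). CPM used the total count times the TMM factor (0.980 to 1.02). CPM per kilobase used GENCODE v44 transcripts (GRCh38). Named genes were the 10 G1 genes in every comparison, HIF1A and EPAS1, up to 5 called genes per list and comparison with the smallest adjusted p, and the 3 genes most correlated with each G1 gene over 12 libraries in log2(CPM + 0.5) minus the mean of the replicate number. The genes and lists were chosen with earlier results of these data known. Of the p53 targets, 1 symbol (TIGAR) found no match. The pairing comes from the study's methods. Deviations from the group means correlated at over 0.1 in 17 of 18 pairs of same-numbered libraries (0.0991 to 0.813), against 9 of 36 pairs with different numbers (-0.724 to 0.527). All 9 lay between replicates 1 and 2. Control siRNA replicate 2 was closer to HIF2A siRNA replicate 1 (0.527) than to HIF2A siRNA replicate 2 (0.2305). The correlations thus set replicate 3 apart (0.724 to 0.813 within it) and separate replicates 1 and 2 less clearly. Replicates differed by more than sampling noise. Alternatives were DESeq2 size factors, no filter, 10 or more counts in every library, a fit without the replicate block, DESeq2 1.42.0, other sets of libraries in the fit and each replicate number or library left out. The procedure was tested on simulated data. Figures were drawn with matplotlib.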

Additional observations from a re-analysis of the deposited data

How the results depend on the processing

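Over 1400 values of the 10 genes under the alternatives, 1360 stayed on the same side of the threshold, 18 lost a call, 22 gained one and 0 reversed a called direction, while 74 uncalled values changed sign. Without the replicate block the G1 genes called fell from 1 to 0 between the single knockdowns, from 3 to 0 in the double knockdown against control siRNA and from 1 to 0 against HIF1A siRNA, and all genes called fell to 41, 1, 52, 195, 8, 90 and 0 (in the order HIF1A siRNA and HIF2A siRNA against control, HIF1A against HIF2A siRNA, double knockdown against control, HIF1A and HIF2A siRNA, and interaction). The block changed no other call of the 10 genes. With HIF2A siRNA 1 G1 gene (CCND1) was called with no filter, with DESeq2's test and with all 12 libraries in the fit. These fits called 41 of 16784, 58 of 12830 and 26 of 13000 genes. With only the 6 libraries compared, 5 G1 genes were called in the double knockdown against control siRNA (CCND3 and CDKN1B higher in addition). That fit called 2609 of 12553 genes, beside 1336 of 13000 in the main fit. Against HIF1A siRNA the fit of 6 libraries called 2 G1 genes (656 of 12631 genes). DESeq2 also called 2 there (403 of 13000 genes), with CDKN1A in addition in both. Against HIF2A siRNA 1 (CDK6) was called with no filter and 2 by DESeq2 (650 of 17033 and 818 of 13000 genes).

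With a replicate number or a library left out, the G1 genes called ranged from 0 to 1 with HIF1A siRNA, from 0 to 1 with HIF2A siRNA, from 0 to 1 between the single knockdowns, from 1 to 5 in the double knockdown against control siRNA, from 1 to 2 against HIF1A siRNA, from 0 to 1 against HIF2A siRNA and stayed at 0 in the interaction. CCND1 with HIF2A siRNA was called without replicate 2, control siRNA replicate 1, control siRNA replicate 2 or HIF2A siRNA replicate 2 (adjusted p = 0.014, 0.042, 0.020 and 0.027). With any other replicate number or library left out it was not called, as without replicate 3 (adjusted p = 0.9997). The call of CCND1 between the single knockdowns was lost without replicate 3, HIF1A siRNA replicates 1 or 2 or HIF2A siRNA replicate 3 (adjusted p = 0.28, 0.074, 0.080 and 0.083). CCND3 and CDKN1B were called in the double knockdown without HIF2A siRNA replicate 2, where 2307 of 13203 genes were called against control siRNA. CDK6 was called against HIF2A siRNA without control siRNA replicate 1 or HIF2A siRNA replicate 1 (672 of 13212 and 466 of 13185 genes). The cause of these changes was not tested.

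Counts of all genes moved by over 1.5 times in other fits too. DESeq2 called 236, 58, 329, 403 and 818 genes with HIF1A siRNA, with HIF2A siRNA, between them and for the double knockdown against HIF1A and HIF2A siRNA, and 11 in the interaction. No filter gave 41 with HIF2A siRNA, 291 between the single knockdowns and 4 in the interaction. All 12 libraries gave 26 with HIF2A siRNA, and only the 6 compared gave 3, 2609, 656 and 164 with HIF2A siRNA and for the double knockdown against control, HIF1A and HIF2A siRNA. Among fits with a replicate or library left out the lowest counts were 66, 1, 90, 302, 26, 158 and 0 in the order above, and the highest that moved so far were 33 (HIF2A siRNA), 351 (between the single knockdowns), 2307 and 442 (double knockdown against control and HIF1A siRNA) and 3 (interaction). Depth was lowest for CCND2 (12 to 69 counts per library), whose counting error in the double knockdown against control, 0.19 on the log2 scale, was under its fitted standard error of 0.44.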
